A study of Mus musculus with 8 samples.

Results

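CD4+ CD25+ T cells of visceral adipose tissue were set against the same sort gate in spleen, in mice whose genotype is labelled Id2 CKO and whose libraries the file header calls KO. These 4 Id2-deficient libraries, 2 of each tissue, were chosen by their labels from the 8 in the series, and all 13376 genes with enough signal were compared. The other 4 libraries came from WT mice, 2 of adipose tissue and 2 of spleen. Every group was of strain C57BL/6, a minimum of 500 cells was sorted for each library, and RNA was amplified with a SMARTer ultra-low-input kit before Nextera XT library construction. The sources used here do not name the promoter that drives the deletion, the deleted part of Id2, the age of the mice or any pooling of animals. Libraries are numbered 2 and 3 in each group and the header calls these numbers experiments. No source says that both libraries of a group are from different mice. The p-values below therefore reflect the spread among libraries only, and that spread may be technical.

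Id2 encodes a helix-loop-helix protein without a DNA-binding region, which pairs with E proteins such as E2A and keeps them off DNA. CD25 is the alpha chain of the interleukin-2 receptor, and the CD4+ CD25+ gate holds regulatory T cells (Tregs), defined by the transcription factor Foxp3, and can also hold activated conventional T cells. Tregs of visceral fat are known for Pparg, for the receptor of interleukin-33 and for tissue chemokine receptors, and fat Tregs express more Id2 than Tregs of lymphoid organs. Immediate early genes such as Fos and Junb are transcribed within minutes of a stimulus without new protein synthesis, and their products include the parts of the transcription factor AP-1.

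Levels are given as TPM, the share of a library's transcripts that a gene holds after correction for length, always in the order experiment 2 and experiment 3. Between 13184 genes (Id2-deficient adipose 2) and 20684 genes (Id2-deficient adipose 3) had a value above 0. The adipose libraries differed more from each other (SD of the log2 difference across tested genes 1.49, r = 0.812 across genes) than the spleen libraries did (SD 0.84, r = 0.938). The 10 T cell markers, the CD3 chains among them, summed to 9401 and 3525 TPM in Id2-deficient adipose tissue and to 9782 and 7719 TPM in Id2-deficient spleen, and none of them was at 0 in any library. T cell transcripts were thus present in all 4 libraries, with the lowest sum in adipose 3. These markers do not tell CD25+ cells from other T cells.

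Foxp3 was at 7.4 and 98.4 TPM in Id2-deficient adipose tissue and at 8.27 and 226 TPM in Id2-deficient spleen. Among Id2-deficient libraries both of experiment 2 were low, whatever the tissue, and both of experiment 3 were higher. In WT cells it was at 126 and 93.5 TPM in adipose tissue and at 169 and 266 TPM in spleen. The other 3 defining Treg markers were above 0 in all 4 Id2-deficient libraries. Il2ra, which encodes CD25 itself, was at 33.8 and 76.7 TPM in adipose tissue and 71.8 and 143 TPM in spleen. None of the 4 Treg markers passed the test between the tissues in Id2-deficient cells (limma, 1 of 4 at an unadjusted p under 0.05), and Foxp3 had a log2 fold change of -0.67 ± 1.48 (SE, adjusted p = 0.893). Without Id2-deficient adipose 2 that value was 1.11, and without Id2-deficient spleen 3 it was 1.64.

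Markers of cells outside the gate also differed between the tissues. The 11 mesothelium markers (mesothelium is the cell layer that covers visceral fat) summed to 405 and 753 TPM in Id2-deficient adipose tissue against 0.955 and 3.42 TPM in spleen, and to 6.55 and 3.93 TPM in WT adipose tissue. All 11 were above 0 in both Id2-deficient adipose libraries, whereas 9 of 11 were at 0 in each WT adipose library. The 11 fibroblast markers summed to 689.5 and 3417 TPM in Id2-deficient adipose tissue, 0.238 and 0.554 TPM in spleen and 1.33 and 8.72 TPM in WT adipose tissue. Both Id2-deficient adipose libraries therefore stood above every other library in these 2 lists. Dcn and Igfbp6 held most of the fibroblast sum: the other 9 markers summed to 16.9 and 178 TPM in Id2-deficient adipose tissue, and 4 of 11 were at 0 in adipose 2 and 1 in adipose 3.

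Other lists were highest in Id2-deficient adipose 3. Macrophage markers summed to 15.8 and 11546 TPM in Id2-deficient adipose tissue, adipocyte markers to 54.2 and 14386 TPM and endothelial markers to 16.3 and 1068 TPM. In Id2-deficient spleen the sums were 13.7 and 109.9 TPM for macrophage, 1.25 and 8.0 TPM for adipocyte and 5.59 and 28.1 TPM for endothelial markers. Adipose 2 thus lay within the range of the spleen libraries for macrophage and endothelial markers and above both for adipocyte markers. In WT adipose tissue they were 9.67 and 28.2 TPM, 6.66 and 2124 TPM and 38.2 and 159 TPM, so adipocyte markers were also high in WT adipose 3. Erythroid genes, chiefly hemoglobins, summed to 34707 and 65679 TPM in Id2-deficient adipose tissue and 1186 and 107806 TPM in spleen, with no order by tissue. None of the macrophage, adipocyte, endothelial or erythroid markers passed the test (limma; 1 of 11, 3 of 7, 2 of 8 and 0 of 7 tested at an unadjusted p under 0.05). Bulk libraries cannot tell fewer cells of a type from less RNA per cell.

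**Figure D1:**
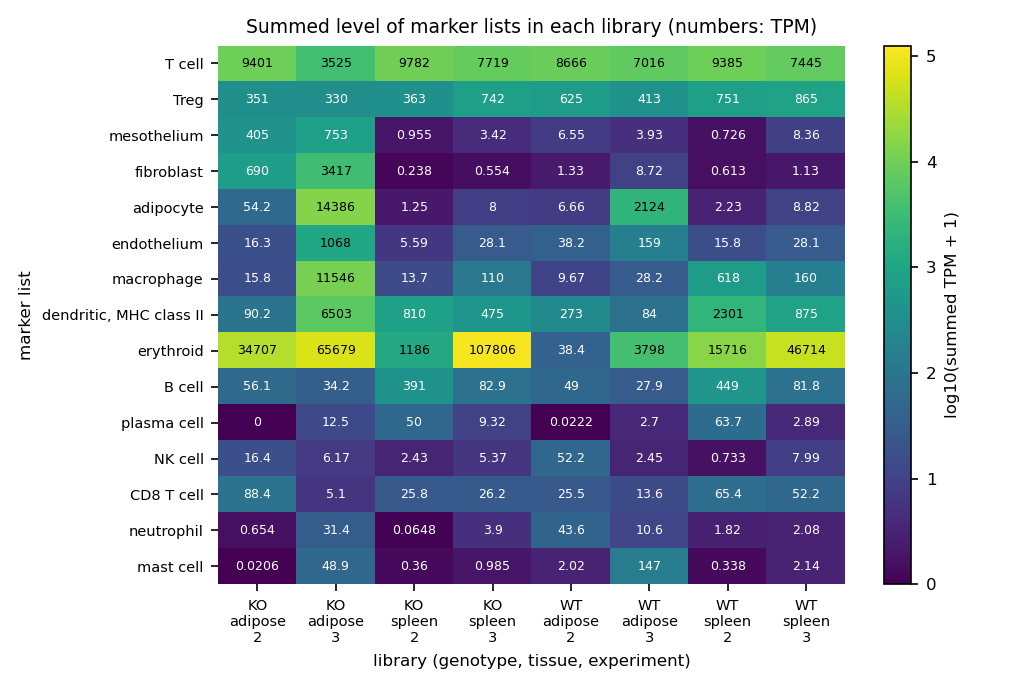
Summed TPM of each marker list (rows) in each of the 8 libraries (columns), coloured by log10(summed TPM + 1) and printed as TPM. Mesothelium and fibroblast markers are at 405 to 3417 TPM in the 2 Id2-deficient adipose libraries and under 10 TPM in the other 6, while macrophage markers are highest in Id2-deficient adipose 3 (11546 TPM).

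The targeted gene Id2 reached 1499 and 1298 TPM in Id2-deficient adipose tissue and 72.1 and 265 TPM in Id2-deficient spleen. In WT cells it was at 2249 and 3679 TPM in adipose tissue and at 274 and 346 TPM in spleen. Both adipose libraries were far above both spleen libraries in either genotype, and in either tissue both Id2-deficient libraries were below both WT libraries. The tissue difference in Id2-deficient cells was a log2 fold change of 3.32 ± 0.57 (SE, limma adjusted p = 0.0424), beside 3.22 in WT cells (adjusted p = 0.0835). Id2-deficient against WT cells gave -1.04 ± 0.57 in adipose tissue (adjusted p = 0.751) and -1.15 ± 0.57 in spleen (adjusted p = 1). Transcript therefore remained in the Id2-deficient libraries, and whether it contains the deleted part was not tested. Id3, the other Id protein of T cells, was at 116 and 323 TPM in Id2-deficient adipose tissue and 478 and 245 TPM in spleen, with overlap between the tissues (adjusted p = 0.565). WT cells had Id3 at 25.1 and 22.3 TPM in adipose tissue and 322 and 276 TPM in spleen.

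In Id2-deficient cells 144 of 13376 genes (1.08%) passed an adjusted p of 0.05 between the tissues, 124 of them higher in adipose tissue (0.927%) and 20 lower (0.15%). All 144 had groups that did not overlap. Over all genes tested, both adipose libraries were above both spleen libraries for 22.1% and below both for 14.6%. The median log2 fold change was 0.16 over all genes tested and -0.11 after quantile normalization, which called 173 genes higher and 58 lower (74.9% higher against 86.1%). The 124 higher genes had log2 fold changes from 1.71 to 9.95 and the 20 lower genes from -1.92 to -4.82. Fold changes refer to log2(TPM + 1), so they understate the change of genes at low levels.

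The number of calls depended on single libraries. It fell to 1, Fos, without Id2-deficient spleen 2, to 19 without Id2-deficient spleen 3 and to 80 without Id2-deficient adipose 3, and it was 710 without Id2-deficient adipose 2. Leaving out a WT spleen library, which enters through the shared estimate of the spread and the filter on low values, gave 40 and 41 calls, and 25 each time with the same 13376 genes tested. Of 73 called genes followed across settings, 43 lost the call in 14 or more of the 28 alternative settings, Id2 in 21 of them. The 73 include genes outside the naming rule, and not all are named here. With the experiment number as a block 236 genes were called, all 144 among them. The tissue differences of experiments 2 and 3 correlated across genes with r = 0.346, and 58.2% of genes had the same sign in both. Genes are not independent replicates.

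**Figure D2:**
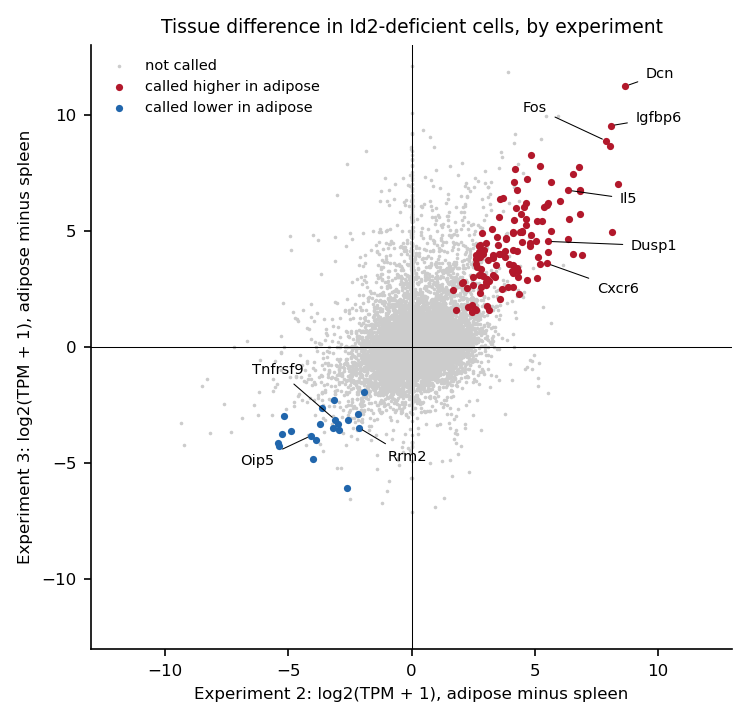
Each point is a tested gene, with its difference in log2(TPM + 1) between Id2-deficient adipose tissue and spleen in experiment 2 (x axis) and in experiment 3 (y axis). The 124 genes called higher (red) lie above 0 in both experiments and the 20 called lower (blue) lie below 0 in both, while most other genes (grey) scatter around 0.

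Immediate early genes led the genes that were also high in WT adipose tissue. Of the 22 tested members of the list, 19 had a positive log2 fold change in Id2-deficient cells, 7 rose (9 with the block) and none fell. Over all genes 0.927% rose (1.42% with the block), and 12.9% were at an unadjusted p under 0.05 in either direction, the shares against which the counts of this and the following lists can be read. The list median was 2.57 beside 0.16 over all genes. The median difference was 2.05 in experiment 2 and 2.68 in experiment 3. Fos, a subunit of AP-1, was at 1779 and 1525 TPM in adipose tissue and 6.48 and 2.21 TPM in spleen of Id2-deficient mice. The 2 tissues were far apart in both experiments, with a log2 fold change of 8.39 ± 0.57 (SE, adjusted p = 0.00177). It was the only named gene called in all 28 alternative settings. WT cells had Fos at 1475 and 3107 TPM in fat and 6.11 and 15.2 TPM in spleen.

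The other called members had the same order of tissues in both genotypes. Junb, a partner of Fos in AP-1, was at 2163 and 2859.5 TPM in Id2-deficient adipose tissue and 60.2 and 192 TPM in spleen (log2 fold change 4.52, adjusted p = 0.0334). Fosb, a second Fos protein, was at 30.5 and 60.0 TPM and 0.252 and 0.331 TPM (5.09, adjusted p = 0.0181). Both were lower in each Id2-deficient spleen library than in either Id2-deficient adipose library, and Fosb was under 1 TPM in that spleen group. Ier2 was at 840.1 and 875 TPM in adipose tissue and 95.5 and 120.0 TPM in spleen, with close libraries in both tissues (2.99, adjusted p = 0.0112). Ier3, a stress-responsive regulator of survival, was at 73.4 and 131 TPM and 4.28 and 4.13 TPM (4.25, adjusted p = 0.010). The zinc finger factor Klf6 was at 409.9 and 366 TPM and 26 and 59.6 TPM (3.26, adjusted p = 0.0162). Btg2, an antiproliferative gene, was the smallest of the 7 by fold, at 1110.1 and 861 TPM and 195 and 134 TPM (2.59, adjusted p = 0.0292).

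The list of feedback genes, which switch off kinase, NF-kB and cytokine signalling, had 25 tested members, of which 19 had a positive value and 5 rose (7 with the block), against 0.927% of all genes (1.42% with the block), and its median was 0.81. Dusp1, a phosphatase that inactivates MAP kinases, was at 1609 and 1078 TPM in Id2-deficient adipose tissue and 34 and 44.7 TPM in spleen. Its libraries were close within each tissue, and the log2 fold change was 5.04 ± 0.35 (SE, adjusted p = 0.00177), beside 5.0 in WT cells (adjusted p = 0.00482). Dusp6, which acts on ERK, was at 87.2 and 142 TPM and 19.6 and 19.2 TPM (2.46, adjusted p = 0.0334). Rgs2, a brake on G protein signalling, was at 313 and 232 TPM and 17 and 6.57 TPM (4.53, adjusted p = 0.00822). The smaller of these differences, that of Dusp6, had no overlap between tissues either. Tnfaip3, the NF-kB inhibitor A20, was at 74.5 and 109 TPM and 9.19 and 11.9 TPM (2.99, adjusted p = 0.0385). Ppp1r15a, which restores translation after stress, was at 376 and 663 TPM and 7.22 and 37.5 TPM (4.81, adjusted p = 0.0334). The heat shock list had a median of 0.28 (-0.30 in experiment 2 and 0.25 in experiment 3), 10 of 16 positive values and no calls (limma, 2 at an unadjusted p under 0.05).

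Fos, Fosb, Junb and Dusp1 were high together in adipose tissue, and their promoters are shown because the same short run of letters recurs in them. The sequences are the 250 bases before the annotated start in RefSeq (build GRCm38.p6), printed 5′ to 3′ on the gene's own strand, with capitals marking TGACG on either strand. They cover chr12:85473640-85473889 (plus strand) for Fos, chr7:19310046-19310295 (minus strand) for Fosb, chr8:84978749-84978998 (minus strand) for Junb and chr17:26508473-26508722 (minus strand) for Dusp1.
Fos: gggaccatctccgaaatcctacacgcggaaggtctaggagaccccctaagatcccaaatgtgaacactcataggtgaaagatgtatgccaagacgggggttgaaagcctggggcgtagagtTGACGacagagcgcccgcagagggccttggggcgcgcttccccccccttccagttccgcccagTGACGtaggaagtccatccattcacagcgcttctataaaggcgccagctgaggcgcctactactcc
Fosb: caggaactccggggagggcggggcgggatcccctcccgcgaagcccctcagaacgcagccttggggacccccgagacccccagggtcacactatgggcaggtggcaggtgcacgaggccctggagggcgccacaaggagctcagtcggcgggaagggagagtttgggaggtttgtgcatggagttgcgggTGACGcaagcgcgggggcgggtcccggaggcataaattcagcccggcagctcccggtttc
Junb: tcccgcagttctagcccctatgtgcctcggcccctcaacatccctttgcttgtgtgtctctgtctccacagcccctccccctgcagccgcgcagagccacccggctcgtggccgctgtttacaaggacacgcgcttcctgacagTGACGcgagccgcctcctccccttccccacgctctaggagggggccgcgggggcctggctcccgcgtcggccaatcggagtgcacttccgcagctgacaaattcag
Dusp1: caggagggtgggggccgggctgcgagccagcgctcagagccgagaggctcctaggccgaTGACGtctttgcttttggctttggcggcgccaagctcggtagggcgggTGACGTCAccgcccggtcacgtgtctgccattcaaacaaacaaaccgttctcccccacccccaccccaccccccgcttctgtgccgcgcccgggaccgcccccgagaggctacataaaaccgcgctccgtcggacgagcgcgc
TGACG is the first part of the cAMP response element (CRE) TGACGTCA, which is bound by CREB and ATF proteins and contains TGACG on both strands. It began 129 and 66 bases before the start in Fos, 60 in Fosb and 106 in Junb. Dusp1 had TGACG at 191 bases and the whole CRE at 143 bases before the start. TGACG was searched after the sequences had been seen. It occurred in 17.8% of all 32851 promoter windows and at some start of 30.8% of the 9413 tested genes that matched the table, so it is a common run. Of the 7 called immediate early genes 6 matched, and 4 of them (Fos, Fosb, Junb and Btg2) held it. Among all called higher genes 90 matched, and 19 of those held it. The full CRE was in 1 of the 6 (Btg2), in 1.55% of windows and in 3.03% of the matched tested genes. The TATA box TATAAA was in 1 of the 6 (Fos), in 12.4% of windows and in 7.93% of those genes. The search covered only the 250 bases before each start, so sites further away would be missed. Within them the 6 had no match on either strand for the AP-1 site TGACTCA (4.46% of windows), the CArG box (1.47%) or the heat shock element GAANNTTC (6.69%). All matches given here describe letters in a window and show no binding.

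Receptors of tissue T cells formed the next group. Cxcr6, the receptor of the chemokine CXCL16, was at 1442 and 1063 TPM in Id2-deficient adipose tissue and 31.2 and 85.9 TPM in spleen, a log2 fold change of 4.55 ± 0.52 (SE, limma adjusted p = 0.0109). Ccr2, which guides cells to inflamed tissue, was at 172 and 192 TPM and 0.444 and 11.3 TPM (5.44 ± 0.91, adjusted p = 0.0385). Adipose libraries were close for both receptors, and for Ccr2 the spleen libraries were far apart. These were the 2 calls among 16 tested chemokine receptors (0.927% of all genes rose), of which 13 had positive values with a median of 1.20. Ltb4r1, the high-affinity receptor of leukotriene B4, was at 298 and 303 TPM and 0.0728 and 8.74 TPM (6.54 ± 1.09, adjusted p = 0.0385). Its spleen libraries, too, differed widely. Il5, the eosinophil growth factor, was at 80.2 and 129 TPM in adipose tissue and 0 and 0.192 TPM in spleen, near absence in the latter (6.55 ± 0.97, adjusted p = 0.0267). WT adipose tissue had Il5 at 15.8 and 176 TPM.

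The list of genes known from fat Tregs had 21 tested members, of which 15 had positive values, 12 had both adipose libraries above both spleen libraries (22.1% of all genes) and 15 were at an unadjusted p under 0.05 (12.9% of all genes). After adjustment Ccr2 and Cxcr6 rose (3 genes with the block) and Tnfrsf9 fell. The list median was 1.90 in Id2-deficient and 1.96 in WT cells. Pparg, the nuclear receptor that defines fat Tregs, was at 107 and 112 TPM in Id2-deficient adipose tissue and 0.545 and 8.77 TPM in spleen. Both adipose libraries were above 100 TPM and both spleen libraries under 10 TPM, yet the test gave an adjusted p of 0.0763 (0.0478 with the block). Fgl2, a secreted suppressive mediator, was at 63.1 and 58.9 TPM and 2.29 and 12 TPM (adjusted p = 0.0701). Rora, a nuclear receptor of tissue lymphocytes, was at 45.8 and 35.3 TPM and 2.99 and 8.04 TPM (adjusted p = 0.115). Neither had overlapping tissues, and neither passed the threshold. In WT adipose tissue Pparg was at 25.6 and 154 TPM, and the adipocyte markers summed to 6.66 and 2124 TPM there. In Id2-deficient adipose tissue those markers summed to 54.2 and 14386 TPM. The part of adipocytes in the Pparg signal was not tested.

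Annexins, S100 proteins and galectins, calcium-dependent membrane proteins and sugar-binding proteins of effector and tissue T cells, moved in 1 direction. All 16 tested members had positive values in Id2-deficient cells, in both experiments, 6 rose (9 with the block), against 0.927% of all genes (1.42% with the block), and the median was 1.97 (1.79 in WT cells). Anxa1, a phospholipid-binding protein that dampens inflammation, was at 251 and 288 TPM in adipose tissue and 5.5 and 5.67 TPM in spleen. Its replicates were nearly equal in both tissues, and the log2 fold change was 5.36 ± 0.45 (SE, adjusted p = 0.00288). The sugar-binding Lgals3 was at 149 and 208 TPM and 7.68 and 22 TPM (3.64, adjusted p = 0.0319). S100a6 was at 1751 and 1029 TPM and 143 and 239.7 TPM (2.85, adjusted p = 0.0312). Anxa2 was at 294 and 326 TPM and 42.3 and 63.7 TPM (2.55, adjusted p = 0.0212). Lgals1, the most abundant of the 6, was at 3602 and 3269 TPM and 743 and 992 TPM (2.0, adjusted p = 0.0357). The intermediate filament gene Vim was at 887 and 631 TPM and 98.7 and 204 TPM (2.39, adjusted p = 0.0387). Fibroblasts and mesothelium also express several of these genes, and the share of the signal from such cells was not tested. The WT adipose libraries, where mesothelium markers summed to 6.55 and 3.93 TPM, had Anxa1 at 271 and 681 TPM and Lgals3 at 269.6 and 205 TPM.

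Of the 124 higher genes, 48 were at 5 TPM or more in both WT adipose libraries, a level that the contrast in Id2-deficient cells did not use. All 12 called members of the immediate early and feedback lists, the 6 of the annexin list, Ccr2, Cxcr6, Id2 and Il5 belonged to these 48. Their median log2 fold change was 3.50 in Id2-deficient and 3.89 in WT cells, which is a description, since a high WT adipose level helped to choose them. Several others were picked after their values were seen. Ramp3, a partner of the receptors for calcitonin-family peptides, was at 107 and 69.8 TPM in Id2-deficient adipose tissue and 2.72 and 1.5 TPM in spleen (adjusted p = 0.0118). Rnf128, the ubiquitin ligase GRAIL linked to T cell anergy, was at 102 and 66.7 TPM and 3.69 and 1.96 TPM (adjusted p = 0.0222). Neither had a spleen library above 4 TPM. Metrnl, which encodes a secreted factor, was at 122 and 103 TPM and 0.32 and 5.41 TPM (adjusted p = 0.0162). Cd40lg, the helper ligand for CD40, was at 244 and 302 TPM and 57.7 and 43.9 TPM (adjusted p = 0.0403). The cytokine Il6 was at 22.9 and 70.3 TPM and 0 and 0.0731 TPM (adjusted p = 0.0424), and Hrh4, a histamine receptor, at 19.4 and 10.9 TPM and 0.176 and 0.962 TPM (adjusted p = 0.0449). Bik, a proapoptotic member of the BCL2 family and the only called one of its 15, was at 32 and 37.5 TPM and 3.69 and 5.46 TPM (adjusted p = 0.0432).

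**Figure D3:**
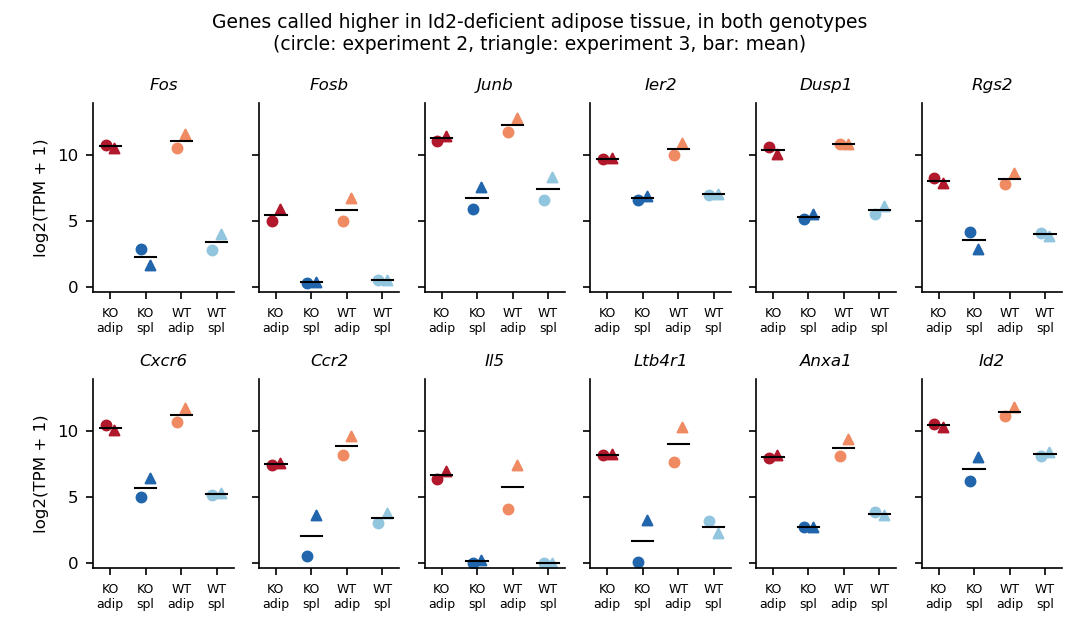
log2(TPM + 1) of 12 genes in the 4 groups (circle for experiment 2, triangle for experiment 3, bar for the mean of both). In all 12 panels both Id2-deficient adipose libraries lie above both Id2-deficient spleen libraries, and the WT adipose libraries lie above the WT spleen libraries as well.

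A second class of higher genes was near absent from WT adipose tissue. It held 55 of the 124 genes, all below 1 TPM in WT adipose 2 and in WT adipose 3. Of them, 53 were below 1 TPM in all 4 spleen libraries and 37 were listed at 0 in both Id2-deficient spleen libraries. Those 53 passed the filter (1 TPM in 2 or more libraries) only through the 2 Id2-deficient adipose libraries. Their direction and lack of overlap were thus fixed by the filter. A further 21 genes lay between the classes. The median fitted value of the 55 genes, 4.18 in Id2-deficient and 0 in WT cells, depends on the pseudocount because so many values are 0. The leading genes encode matrix, mesothelial and complement proteins. Dcn, which encodes the proteoglycan decorin, stood at 404 and 2493 TPM in Id2-deficient adipose tissue, 0 and 0.0284 TPM in Id2-deficient spleen and 0.101 and 3.58 TPM in WT adipose tissue. Dcn thus lay between the classes, above 1 TPM in WT adipose 3. Id2-deficient adipose 3 was the higher library, but adipose 2 was also far above the 6 libraries of the other groups. Igfbp6, which binds insulin-like growth factors, was at 269 and 746 TPM and listed at 0 in both Id2-deficient spleen libraries (adjusted p = 0.00177). WT adipose tissue had 0.038 and 0.839 TPM of it.

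Mesothelial genes were high in both Id2-deficient adipose libraries. Of the 11 mesothelium markers 7 rose (8 with the block), against 0.927% of all genes, but some of these markers were put on the list with earlier results of these data known. Of the 7, all except Lrrn4 were under 1 TPM in every library outside Id2-deficient adipose tissue. They passed the filter only through that group, which fixed their direction and lack of overlap. The share over all genes is therefore no like measure for them. Nkain4, which interacts with the sodium pump, was at 113 and 107 TPM and Upk1b, a uroplakin of epithelial membranes, at 113 and 106 TPM. Both genes were listed at 0 in all 6 other libraries, so they passed the filter only through Id2-deficient adipose tissue. Msln, the surface protein mesothelin, was at 24.7 and 149.6 TPM, Upk3b at 20.5 and 52.9 TPM and Gpm6a at 63.3 and 77.6 TPM in Id2-deficient adipose tissue. All 3 were likewise listed at 0 elsewhere, and the adjusted p was 0.020 for Msln, 0.0109 for Upk3b and 0.0028 for Gpm6a. Krt19, a keratin of simple epithelia, was at 16.7 and 144 TPM in adipose tissue and 0 and 0.0319 TPM in spleen (adjusted p = 0.0334). Lrrn4 differed from these in being present in WT adipose tissue, at 5.64 and 3.2 TPM, beside 6.37 and 14.2 TPM in Id2-deficient adipose tissue (adjusted p = 0.0476). The 4 markers that missed the threshold were Krt8, Krt18, Wt1 and Muc16, with Krt8 at 7.99 and 70.3 TPM against 0 in both Id2-deficient spleen libraries (adjusted p = 0.0622, 0.0463 with the block).

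Of the 11 fibroblast markers 6 had enough signal to be tested and 3 rose, Dcn, Igfbp6 and Col3a1 (4 with the block, which added the microfibril gene Mfap5 at an adjusted p of 0.0463), against 0.927% of all genes (1.42% with the block). Igfbp6 and Col3a1 passed the filter only through Id2-deficient adipose tissue, which fixed their direction. Lum, at 0 and 110 TPM there, failed it. The share over all genes is therefore no like measure, and some of these markers were listed with earlier results of these data known. Col3a1, a fibrillar collagen, was at 7.14 and 21.3 TPM in Id2-deficient adipose tissue and listed at 0 in both Id2-deficient spleen libraries (adjusted p = 0.0334). Rarres2, which encodes the chemoattractant chemerin, was at 262 and 401 TPM and Efemp1, a fibulin of the matrix, at 333 and 128 TPM. Both were at 0 in all 4 spleen libraries, with an adjusted p of 0.00316 each. Gas6, the ligand of the TAM receptors that bind dying cells, was at 27.9 and 313 TPM and 0 in both Id2-deficient spleen libraries (adjusted p = 0.033). Prss23, a serine protease, was at 114 and 53 TPM and 0 in the spleen (adjusted p = 0.00316), and it too passed the filter only through Id2-deficient adipose tissue. Cldn15, a tight junction protein, was at 50.4 and 189 TPM in adipose tissue and 0.0318 and 0.362 TPM in spleen (adjusted p = 0.0267). The caveolar gene Prkcdbp was at 36.4 and 222 TPM and 0 in the spleen (adjusted p = 0.0357). Of these, Rarres2, Efemp1, Gas6, Cldn15 and Prkcdbp passed 1 TPM in a single WT adipose library, with Rarres2 at 0 and 3.51 TPM and Prkcdbp at 0.776 and 11.3 TPM, so they too lay between the classes.

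Several complement genes were called as well, and no list of them was set. C3, the central component of the cascade, was at 108 and 310.2 TPM in Id2-deficient adipose tissue and 0.164 and 0.782 TPM in spleen, a log2 fold change of 7.0 ± 0.65 (SE, limma adjusted p = 0.00368). Serping1, the inhibitor of its first proteases, was at 111 and 213 TPM and listed at 0 in both Id2-deficient spleen libraries (adjusted p = 0.00225). In WT adipose tissue C3 was at 0.0164 and 0.212 TPM and Serping1 at 0 in both libraries. The proteases themselves, C1s1 at 44.3 and 68.8 TPM and C1ra at 24.6 and 46 TPM, and factor B (Cfb) at 46.7 and 74.1 TPM, were looked at after their values had been seen. Each was under 1 TPM in both Id2-deficient spleen libraries, with adjusted p of 0.00316, 0.0162 and 0.00316. None of these 5 genes reached 1 TPM in a WT adipose library. In WT spleen only C1ra did, at 1.48 TPM in experiment 2. C3, Serping1, C1s1 and Cfb thus passed the filter only through Id2-deficient adipose tissue, which fixed their direction and lack of overlap. C2, also looked at afterwards, was at 14.7 and 28.6 TPM in Id2-deficient adipose tissue, 1.37 and 0.428 TPM in spleen and 0.393 and 1.22 TPM in WT adipose tissue (adjusted p = 0.0405), and lay between the classes.

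Dcn, Igfbp6, Nkain4, Upk1b, Msln, Upk3b, Gpm6a and Krt19 are themselves parts of the summed fibroblast and mesothelium markers, so their levels and those sums are not separate observations. The 4 mesothelium markers that were not called summed to 47.8 and 102 TPM in Id2-deficient adipose tissue, 0.882 and 3.36 TPM in spleen and 0.906 and 0.732 TPM in WT adipose tissue. The part of such cells in the result was not tested. Across the 2 adipose libraries the genes did not follow 1 order: Dcn and Msln were higher in adipose 3, Efemp1 and Prss23 in adipose 2, and Nkain4 and Upk1b were nearly equal. Without Id2-deficient adipose 3, Igfbp6, Nkain4, Upk1b, Serping1 and C3 failed the filter and were not tested, whereas Efemp1 was. Testing the same 13376 genes keeps them in. That set was itself chosen with adipose 3, so it cannot show that these calls stand without it.

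Only 4 genes passed the test of the difference between the genotypes in their tissue difference (0.0299%), and all came from the class near absent from WT adipose tissue. All 4 passed the filter on low values only through the Id2-deficient adipose libraries, which were thus bound to exceed all others. They were Igfbp6, Nkain4, Upk1b and Serping1, each with an adjusted p of 0.0367, and none remained called with the experiment as a block (adjusted p of 0.0506, 0.0506, 0.0506 and 0.0611). Dcn missed it at 0.118 and C3 at 0.068. No immediate early, feedback, annexin or fat Treg gene passed (limma; 0, 0, 0 and 1 gene at an unadjusted p under 0.05).

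Fewer genes fell in adipose tissue, and the 20 comprise 14 that can be named, 4 antigen receptor segments and 2 predicted genes. The segments are of immunoglobulin kappa as well as T cell receptor genes. B cell markers summed to 56.1 and 34.2 TPM in Id2-deficient adipose tissue and 391 and 82.9 TPM in spleen. Of 8 tested, 7 had negative values and none passed (limma, 4 at an unadjusted p under 0.05). The part of B cells in these calls was not tested. Tnfrsf9, the costimulatory receptor 4-1BB of activated T cells, was at 25.4 and 32.3 TPM in Id2-deficient adipose tissue and 224 and 290.5 TPM in spleen. The tissues were well separated, with a log2 fold change of -3.11 ± 0.50 (SE, adjusted p = 0.0337), beside -2.84 in WT cells (adjusted p = 0.0823). Art2b, a surface ADP-ribosyltransferase of T cells, was at 8.75 and 10.7 TPM and 76.3 and 114 TPM (-3.15, adjusted p = 0.0297). Cd160, a coreceptor of lymphocytes, was at 0 and 1.07 TPM and 35.6 and 15.2 TPM (-4.08, adjusted p = 0.0387). All 3 were lower in WT adipose tissue as well, Cd160 at 5.78 and 1.94 TPM against 16.2 and 22.8 TPM. Pdzk1ip1 was at 2.7 and 1.16 TPM and 142 and 28.1 TPM (-4.51, adjusted p = 0.0427). The transporter gene Slc22a2 was at 0 and 0.0719 TPM and 11.3 and 5.6 TPM (-3.12, adjusted p = 0.0463). The trypsinogen gene Prss2 was listed at 0 in both Id2-deficient adipose libraries and at 29.1 and 11 TPM in spleen (adjusted p = 0.047).

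Other lower genes were present in WT adipose tissue. Of the 20, 7 were under 1 TPM in both Id2-deficient adipose libraries but above 1 TPM in both WT adipose libraries. Oip5, needed to load the centromeric histone, was at 0 and 0.171 TPM in Id2-deficient adipose tissue, 15.8 and 15.4 TPM in spleen and 11 and 8.57 TPM in WT adipose tissue (adjusted p = 0.0267). Ska1, a kinetochore protein, was at 0 and 0.0285 TPM, 6.74 and 11.1 TPM and 6.72 and 5.45 TPM in the same 3 groups (adjusted p = 0.0357). Both were nearly absent from Id2-deficient adipose tissue alone. Gbp10, an interferon-induced GTPase, was at 0.103 and 0.53 TPM, 9.12 and 15.9 TPM and 14 and 10.5 TPM (adjusted p = 0.0334). Lrr1, a substrate receptor of a ubiquitin ligase, was listed at 0 in Id2-deficient adipose tissue and was at 12 and 8.95 TPM in spleen and 7.04 and 5.18 TPM in WT adipose tissue (adjusted p = 0.0267). Noxa1, an activator of NADPH oxidase, and the histone gene Hist1h2ai were also at 0 in both Id2-deficient adipose libraries, with 13.8 and 14.7 TPM and 4.99 and 7.83 TPM in spleen (adjusted p = 0.0216 and 0.049). Both had lower values in WT adipose tissue than in WT spleen too, Noxa1 at 1.75 and 1.92 TPM against 6.59 and 13.5 TPM and Hist1h2ai at 2.26 and 2.57 TPM against 4.28 and 4.03 TPM. Tmsb15b1, an actin-binding thymosin, had the smallest difference, 16.2 and 16.1 TPM against 64.7 and 63.5 TPM, beside 45.2 and 48.7 TPM in WT adipose tissue (-1.92, adjusted p = 0.0346). None of the 20 passed the test of the difference between the genotypes (lowest adjusted p = 0.155).

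The cell cycle and DNA replication list had negative values throughout in Id2-deficient cells. All 26 tested members had log2 fold changes below 0, against 5537 of all 13376 genes, and 24 did so in both experiments. The median was -1.47 (-1.78 in experiment 2 and -0.96 in experiment 3), and both adipose libraries were below both spleen libraries for 8 of 26, against 14.6% of all genes. Only Rrm2, the small subunit of ribonucleotide reductase, fell (2 genes with the block). It was at 9.3 and 8.76 TPM in Id2-deficient adipose tissue and 44.5 and 107 TPM in spleen, without overlap (-2.8 ± 0.47, SE, adjusted p = 0.0386). In WT cells Rrm2 was the other way, 158 and 98.9 TPM in adipose tissue and 47.9 and 60.3 TPM in spleen, with an interaction adjusted p of 0.155. Tyms, thymidylate synthase, was at 8.04 and 9.91 TPM in Id2-deficient adipose tissue and 37.2 and 38.5 TPM in spleen (adjusted p = 0.0568, 0.0463 with the block).

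Of the other members named by the rule, 3 had wide spread in adipose tissue. The mitotic kinase gene Cdk1 was at 2.05 and 17.3 TPM in Id2-deficient adipose tissue and 28.2 and 44.1 TPM in spleen (adjusted p = 0.271). Birc5, the mitotic protein survivin, was at 0 and 21.2 TPM and 42.7 and 65.3 TPM (adjusted p = 0.286). Stmn1, a microtubule regulator, was at 31.3 and 149 TPM and 328 and 299.6 TPM (adjusted p = 0.21). In these 3 genes adipose 2 was far lower than adipose 3, and both were below the spleen. Pcna, the replication clamp, had closer adipose libraries, at 141 and 111 TPM and 354 and 215 TPM (adjusted p = 0.314). In WT cells 24 of the 26 members had positive values, with a median of 0.61. The difference between the genotypes was not called for any member, the lowest adjusted p being 0.155 (limma, 5 of 26 at an unadjusted p under 0.05).

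The remaining lists had few or no calls. Treg lineage genes had a median of -0.82, with 4 of 18 positive values and no call (7 at an unadjusted p under 0.05). Of these, Ikzf2, the factor Helios, was at 43.2 and 36.2 TPM in Id2-deficient adipose tissue and 73.5 and 142 TPM in spleen (adjusted p = 0.209). Tnfrsf4, the receptor OX40, was at 976 and 466 TPM and 2454 and 1756 TPM (adjusted p = 0.167, 0.0489 with the block). Both had lower values in each adipose library than in either spleen library. Socs2, a cytokine signalling inhibitor, was among the few positive ones, at 86.2 and 46 TPM and 15.5 and 14.5 TPM (adjusted p = 0.0824).

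Naive state and lymphoid homing genes had a median of -0.46, with 5 of 16 positive values and no call (6 at an unadjusted p under 0.05). Their median was 0.47 in experiment 2 and -1.08 in experiment 3, so its sign was not the same in both. Members went both ways: Bach2, a repressor of effector genes, was at 0.798 and 2.27 TPM in adipose tissue and 7.99 and 8.44 TPM in spleen, whereas Klf2, which controls exit from tissue, was at 116 and 80.2 TPM and 33.7 and 37.6 TPM (adjusted p = 0.189 and 0.371). Integrins had a median of 0.53 and no call (7 of 15 at an unadjusted p under 0.05), and Itgb7, a gut homing integrin chain, was at 501 and 362 TPM and 73.1 and 235 TPM (adjusted p = 0.244). Fatty acid and sterol genes had 18 of 20 positive values, a median of 0.71 and no call (5 at an unadjusted p under 0.05). WT cells also had 18 of 20 positive values, with a median of 1.02, and 7828 of all 13376 genes were positive in Id2-deficient cells. The lipid droplet gene Plin2 was at 77.7 and 219 TPM and 10.8 and 14.4 TPM (adjusted p = 0.193). The part of adipocytes in this list was not tested. Glycolysis genes had 13 of 16 positive values with a median of 0.43, beside 1.34 in WT cells, and none was at an unadjusted p under 0.05. No call was made among 14 Th1 and cytotoxic, 11 follicular helper, 14 T cell receptor, 13 suppressive or 14 interferon response genes (limma; 1, 1, 0, 2 and 1 at an unadjusted p under 0.05), whose medians were -0.27, -1.07, -0.23, -0.30 and 0.05. Of these lists, only the follicular helper genes had a median of the same sign in both experiments.

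**Figure D4:**
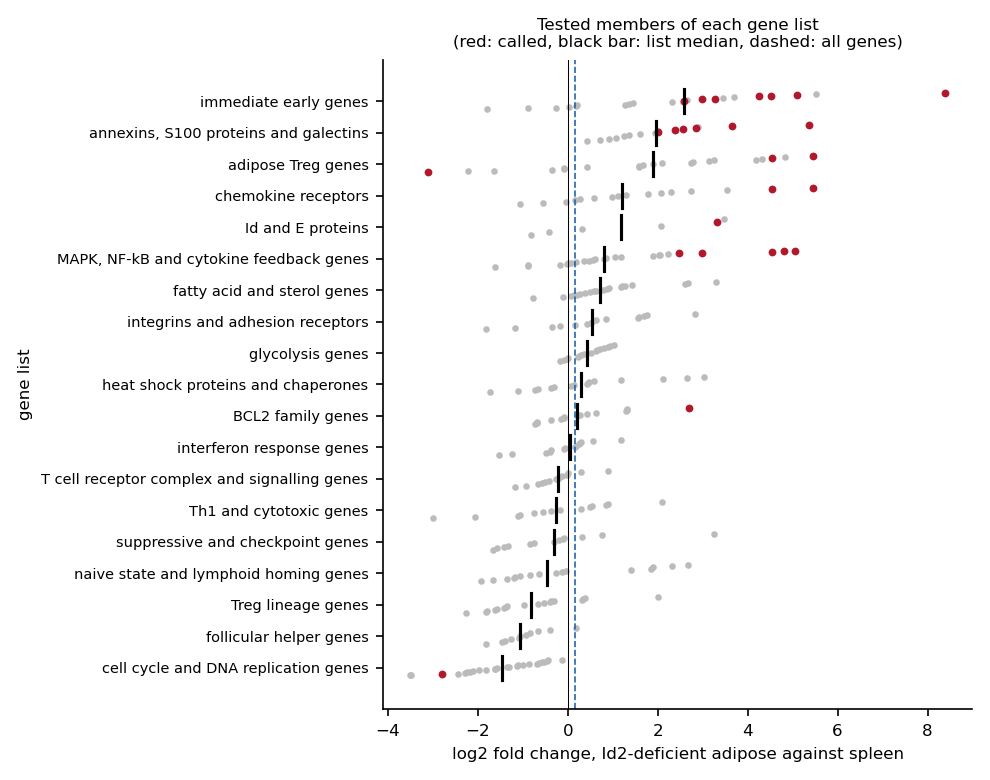
Each point is a tested gene of a list (rows), placed by its log2 fold change between Id2-deficient adipose tissue and spleen (x axis); red points were called, the black bar is the list median and the dashed line the median of all genes, 0.16. Among the lists drawn, which leave out the markers of other cell types, immediate early genes have the highest median (2.57) and cell cycle genes the lowest (-1.47), with 1 called member in the latter.

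Set beside the WT libraries, which share no library with the Id2-deficient comparison but enter the same estimate of the spread, 22 genes (0.164%) were called between WT adipose tissue and WT spleen (78 with the block). Of these, 18 were among the 144 called in Id2-deficient cells, which is 81.8% of the WT calls and 12.5% of the others, and all 18 had the same direction. They included Fos, Fosb, Ier2, Klf6, Btg2, Dusp1, Dusp6, Rgs2, Tnfaip3, Anxa1, Cxcr6, Bik, Cd40lg, Ramp3 and Rnf128. Across all tested genes the 2 tissue differences correlated with r = 0.515 and rho = 0.551, as a description, since the points share the genes' level and composition. Cxcr6 and Rnf128 had larger values in WT cells, 5.98 against 4.55 and 6.32 against 4.49, with interaction adjusted p of 1 for both.

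**Figure D5:**
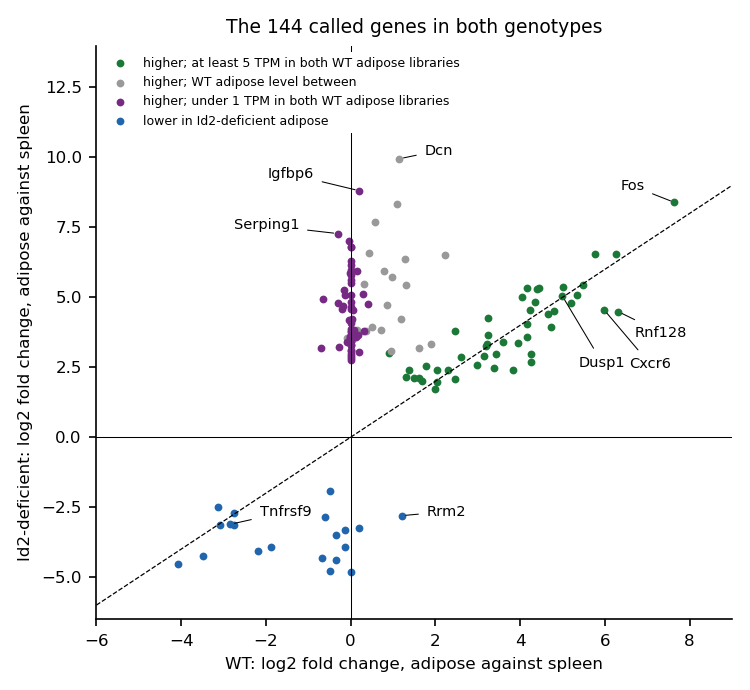
The 144 called genes by their log2 fold change between adipose tissue and spleen in WT cells (x axis) and in Id2-deficient cells (y axis), with a dashed line of equality. Genes at 5 TPM or more in both WT adipose libraries (green, 48) lie near the line, genes under 1 TPM there (purple, 55) lie near 0 on the x axis, and the 20 lower genes (blue) spread from -4.08 to 1.20 in WT cells.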

How the data were processed

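RNA of sorted CD4+ CD25+ T cells was measured in 8 libraries, 2 for each genotype and tissue. The deposited table holds TPM, identified from the values: each column sums to 1000000. The build was mm9 per the submitters' processing notes. The authors' aligner, counting tool and annotation: not given in the sources used here. Depth cannot be read from TPM, so counting intervals and floors are left out. A gene without signal is called listed at 0. All 26 housekeeping genes were above 0 in each library. Of 45232 names, 92.1% matched GENCODE M21, 21784 had no signal anywhere and 27 had become dates in a spreadsheet. Gene coordinates are not printed, since the annotation used here is of GRCm38.

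The 13376 genes that reached 1 TPM in 2 or more of the 8 libraries were fitted as log2(TPM + 1) by limma 3.58.1 (R 4.3.3, variance trend on). A single model of the 4 groups used every library, which left 4 residual degrees of freedom. Benjamini-Hochberg adjustment ran over all these genes, with a threshold of 0.05. The fit assumes 1 spread per gene in all groups, whereas the SD of the log2 difference between a group's libraries ran from 0.70 to 1.49. The code was checked on simulated data with equal spread, which does not bear on that assumption. Same-numbered libraries moved alike: the difference between experiments 3 and 2 correlated across genes between any 2 groups (lowest r 0.128, highest 0.382). The header's word experiment and this check were taken as a possible pairing, and a block on the number is an alternative.

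Named are Id2, Foxp3, the 15 top folds each way, or fewer (no overlap between groups, and a mean of 5 TPM or more where the gene was higher), the 6 members of smallest p of each list, the markers and the genes of the interaction. Clones, predicted genes and receptor segments are not named. Junb, Ramp3, Rnf128, Metrnl, Cd40lg, Il6, Hrh4, C1s1, C1ra, C2, Cfb and Tmem176a fall outside this rule and were chosen after their values were seen. The lists and markers were chosen with earlier results of these data known. No list was given a test of its own. Alternatives covered the pseudocount, filter, scaling, variance model, block and omitted libraries.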

Additional observations from a re-analysis of the deposited data

Results flagged for a closer look

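In the main fit the tissue difference was called unlike in the 2 genotypes for 4 genes, by the test of the difference itself. No gene was called with the experiment as a block, at a pseudocount of 0.1, without a filter or with the filter at 5 TPM. Other settings called more, such as 16 without a trend in the variance. The fitted difference between genotypes, Id2-deficient minus WT on the log2(TPM + 1) scale, was 8.61 ± 0.91 (SE) for Igfbp6, 7.58 ± 0.80 for Serping1, 6.8 ± 0.71 for Nkain4 and 6.78 ± 0.71 for Upk1b, each with a limma adjusted p of 0.0367. These values depend on the pseudocount and are no fold changes, because all 4 genes were listed at 0 in both Id2-deficient spleen libraries. Both Id2-deficient adipose libraries were above 100 TPM for all 4, and the 6 libraries of the other groups were under 1 TPM. All 4 thus passed the filter on low values only through the Id2-deficient adipose libraries, which were bound to exceed the other 6. The summed mesothelium markers, Nkain4 and Upk1b among them, were at 405 and 753 TPM in Id2-deficient adipose tissue and 6.55 and 3.93 TPM in WT adipose tissue. Their part in the result was not tested.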

How the results depend on the processing

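Every one of the 73 called genes followed across settings kept its direction in each of the 28 alternatives in which it could be fitted. Fos alone was called in all of them. Where fitted, Dusp1, Anxa1, Igfbp6, Efemp1, Serping1, C3, Nkain4 and Upk1b lost the call only without Id2-deficient spleen 2, with either set of genes. Igfbp6, Serping1, C3, Nkain4 and Upk1b were fitted in only 25 settings. With the filter applied anew they were not tested without either Id2-deficient adipose library, or without both Id2-deficient libraries of experiment 2. At the other end 43 of the 73 lost it in 14 or more settings: Hrh4 in 24, Vim, Lrrn4, Prss2 and Bik in 23, Slc22a2 in 22, and Id2, Lgals1, Pdzk1ip1, Ska1, Hist1h2ai, Rrm2, Tmem176a and C2 in 21. Of genes that were not called, Foxp3 turned to 1.11 without Id2-deficient adipose 2 and 1.64 without Id2-deficient spleen 3 (range with 1 library left out -2.98 to 1.64), Ctla4 to 0.28 without Id2-deficient adipose 3 (range -0.88 to 0.28), and Id3 to 0.40 without both Id2-deficient libraries of experiment 2.

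The 144 calls in Id2-deficient cells (124 higher, 20 lower) became 70 at a pseudocount of 0.1 (52 higher), 89 at a pseudocount of 5 (81 and 8), 63 with no filter on low values (55 and 8), 231 after quantile normalization (58 lower), 236 with the replicate block (190 and 46), 46 with the 4 libraries of the genotype alone (45 and 1), 48 with library quality weights (46 and 2) and 71 without both Id2-deficient libraries of experiment 2 (59 and 12). The block moved these counts. It ended no call of a named gene in Id2-deficient cells, and list counts with it are given beside the lists they move. Leaving out 1 library gave 1 to 710 calls, 1 to 620 higher and 0 to 90 lower. With a library left out, the other library of its group is assumed to vary like the other groups. With the 13376 genes of the full comparison, an alternative added after seeing the data, omission of 1 library gave 1 to 663 calls (1 to 605 higher, 0 to 58 lower), among them 92 without WT adipose 2 (81 higher, 11 lower), 83 without Id2-deficient adipose 3 (67 higher), 25 (all higher) without either WT spleen library, 21 without Id2-deficient spleen 3 (16 higher, 5 lower) and 82 higher without WT adipose 3, and the 4 Id2-deficient libraries alone gave 12 (12 higher, 0 lower).

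The 4 genes whose tissue difference was unlike in the genotypes became 0 at a pseudocount of 0.1, without a filter, with a filter at 5 TPM and with the replicate block (408, 661, 246 and 661 genes at an unadjusted p under 0.05). They became 10 after quantile normalization and with quality weights, 16 without a trend in the variance, 21 without both Id2-deficient libraries of experiment 2, 0 to 79 with 1 library left out and 0 to 177 with 1 left out and the full genes. The 22 WT calls became 0 without a filter (1961 at an unadjusted p under 0.05), 59 with the filter at 5 TPM, 78 with the replicate block, 217 with the WT libraries alone (0 with the full genes), 7 without a trend, 219 with quality weights, 153 without both Id2-deficient libraries of experiment 2, 0 to 175 with 1 library left out and 0 to 39 with the full genes. The cause of these shifts was not tested, and depth is unknown.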
